A study of Mus musculus with 1 sample.

Results

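The platelet-derived growth factor (PDGF) genes of the fetal mouse testis were described across the cell types of 1 control library. The members were the 4 ligand genes Pdgfa, Pdgfb, Pdgfc and Pdgfd and the 2 receptor genes Pdgfra and Pdgfrb, taken by symbol, which are 6 of the 22631 features in the library. Cells came from 12 pooled control testes at embryonic day 14.5, and the label calls their genotype WT. The study's methods give the controls as carriers of the loxP-flanked Nr5a1 alleles without the Cre transgene and name embryonic days 13.5 and 14.5. The mutant library, in which Sertoli cells lose Nr5a1, was not used here. With 1 pool there is no replicate, so no test was made and every interval given covers counting error only.

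PDGF ligands are secreted dimers that bind receptor tyrosine kinases at the surface of neighbouring cells, mostly of mesenchymal origin. PDGF-A and PDGF-C act mainly through the alpha receptor, PDGF-D mainly through the beta receptor, and PDGF-B through both. PDGF-C and PDGF-D are secreted in a latent form and are cut by proteases before they can bind. In the fetal testis, PDGF signalling is known for its part in the growth of the interstitium, in cord formation and in the appearance of Leydig cells, and PDGF-B from endothelium is known for recruiting pericytes to vessels.

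The filters kept 3807 of 5421 barcodes, with 54431090 unique molecular indices (UMIs, each 1 captured molecule) and a median of 12067 UMIs per cell. In all, 16 clusters were formed without the 6 members, and a name followed from marker genes. The named groups were 843 Sertoli-like, 1202 interstitial-like, 525 peritubular myoid-like, 245 germ-like, 223 Leydig-like, 150 coelomic epithelium-like, 56 perivascular-like, 42 endothelial-like, 37 immune-like, 29 rete testis-like and 18 erythroid-like cells. The remaining clusters were left unnamed and are called by 2 of their leading genes, H2ac8/H1f5 (207 cells), Kcnk2/Pde10a (85), Nts/Vsnl1 (84) and Hbb-bs/Hba-a2 (61). The H2ac8/H1f5 cells, all called in S or G2/M phase, had all 8 interstitial markers. Their mean log2 ratio on that list was 0.96, just under the limit of 1 for a name. The Kcnk2/Pde10a cells also had all 8, at a ratio of 1.19, but an endothelial marker, Emcn, among their leading genes left them unnamed. The Nts/Vsnl1 cells had all 8 interstitial and all 6 Leydig markers, at ratios of -0.59 and -1.41. Levels are summed UMIs per 1000000 UMIs of the group (CPM) with an exact Poisson 95% interval. They were read at the 3′ end and were not divided by length, so levels are compared between cell groups and not between genes.

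In the kept cells Pdgfa had 7119 UMIs, Pdgfra 6256, Pdgfrb 2991, Pdgfc 748, Pdgfd 290 and Pdgfb 280. Pdgfa was highest in Sertoli-like cells, Pdgfb in endothelial-like cells, Pdgfc and Pdgfd in coelomic epithelium-like cells, Pdgfra in interstitial-like cells and Pdgfrb in perivascular-like cells. As a background, 688 of 13187 genes (5.22%) had a level at least 4-fold higher in their highest group than in the second, on the CPM + 5 scale. Of the 6 members 1 did, Pdgfb, at 7.65-fold. The ratio on that scale was 2.16 for Pdgfa over the Hbb-bs/Hba-a2 cluster and 2.26 for Pdgfrb over the Kcnk2/Pde10a cluster. It was 1.11 for Pdgfc over rete testis-like cells, 1.33 for Pdgfd over the Nts/Vsnl1 cluster and 1.14 for Pdgfra over the H2ac8/H1f5 cluster. These ratios depend on how groups were drawn, as the Hbb-bs/Hba-a2 cells had 8 of the 10 Sertoli markers. Over the next group, coelomic epithelium-like cells, Pdgfa in Sertoli-like cells was 5.53-fold by CPM (4.84 to 6.35).

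Pdgfa, which encodes the A chain, lies on the minus strand at chr5:138976014-138997370 (GRCm38, the assembly also called mm10). Sertoli-like cells held 79.0% of its UMIs and 23.5% of all UMIs. Its level there was 440 CPM (95% interval 429 to 452). The Hbb-bs/Hba-a2 cluster followed at 201.5 CPM (147 to 269.6), a value 2.19-fold lower than in Sertoli-like cells. Those 61 cells were shallow (median 3116 UMIs), and 8 of the 10 Sertoli markers were seen in at least 25% of them.

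Next came the coelomic epithelium-like cells at 79.6 CPM (69.6 to 90.7), the perivascular-like cells at 70.2 CPM (51.8 to 93.1) and the interstitial-like cells at 48.6 CPM (44.6 to 52.8). Rete testis-like cells had 41.4 CPM, peritubular myoid-like cells 39.6 CPM, the H2ac8/H1f5 cluster 36.7 CPM and germ-like cells 21.8 CPM. From the coelomic epithelium-like cells down to the H2ac8/H1f5 cluster, each neighbour in this order overlapped the next. The lower groups were the Kcnk2/Pde10a cluster at 16.0 CPM, the Nts/Vsnl1 cluster at 12.9 CPM, endothelial-like cells at 6.98 CPM, Leydig-like cells at 4.19 CPM and immune-like cells at 1.74 CPM (238 CPM with the wider outlier limit of 5 deviations, where that class held 114 cells rather than 37). No Pdgfa UMI was read in the 18 erythroid-like cells, which allows up to 10.0 CPM by counting error alone. Over 10 alternative settings the level in that class ran from 0 to 46.8 CPM. With no outlier filter the class held 271 cells, of which the filter had removed 253.

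Expressed as ratios, the Sertoli-like level was 9.07-fold the interstitial-like level (8.30 to 9.92), 11.1-fold the peritubular myoid-like level (9.86 to 12.6) and 105-fold the Leydig-like level (67.3 to 175). A Pdgfa UMI was read in 89.0% of Sertoli-like cells (86.7 to 91.0, exact binomial interval; median 14365 UMIs) and in 7.62% of the deeper Leydig-like cells (median 18408 UMIs). After each cell was thinned to 5000 UMIs, the share was 72.2% of 831 Sertoli-like cells and 18.3% of 1136 interstitial-like cells.

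**Figure D1:**
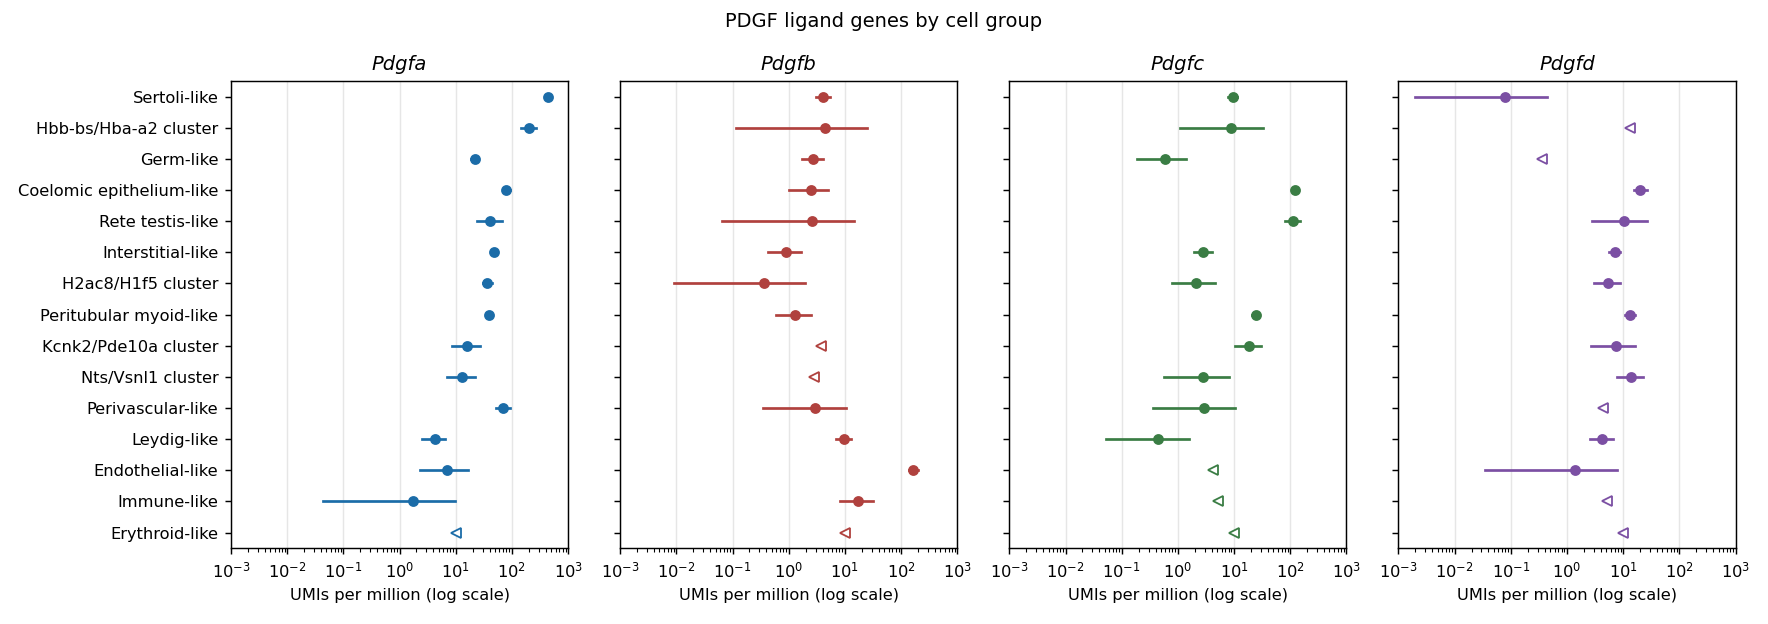
Level of each PDGF ligand gene (CPM, log scale) in the 15 cell groups of the control library. Points are group levels, lines exact Poisson 95% intervals, and open triangles mark groups with no UMI, drawn at the limit that 3 counts allow. Pdgfa peaks in Sertoli-like cells, Pdgfb in endothelial-like cells, and Pdgfc and Pdgfd in coelomic epithelium-like cells. The intervals of Pdgfc and Pdgfd there overlap those of the next group.

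Levels of Pdgfa outside the Sertoli-like cells were set beside the 10 Sertoli markers in the same groups. These markers differed widely within a group, from 0.59% to 63.2% of the Sertoli-like level in the Kcnk2/Pde10a cluster. The comparison therefore cannot tell free RNA from a cell's own, and the part of free RNA was not tested. Relative to Sertoli-like cells, interstitial-like cells held 11.0% of the Pdgfa level, whereas the 10 Sertoli markers stood at 0.53% to 7.0%, Sox9 being highest. In coelomic epithelium-like cells Pdgfa stood at 18.1% and the markers at 0.16% to 2.92%. The perivascular-like cells had Pdgfa at 15.9% with no marker above 5.25%, and the peritubular myoid-like cells 8.98% with none above 6.02%. In these 4 groups, and in the H2ac8/H1f5 cluster at 8.34% against at most 4.62%, Pdgfa was above all 10 markers. Germ-like cells had 4.95% against a highest marker of 4.93% (Trim47), and Leydig-like cells had 0.95% against a marker median of 1.03%. In the Hbb-bs/Hba-a2 cluster Pdgfa stood at 45.8%, within the markers' range of 34.7% to 111%.

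**Figure D2:**
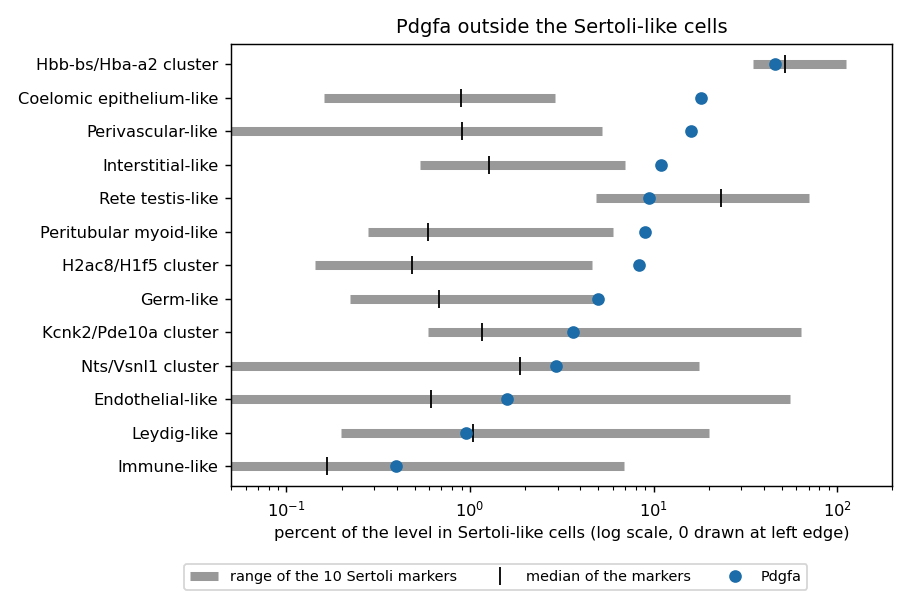
Pdgfa (points) and the range of 10 Sertoli markers (grey bars, with the median as a tick) in each group, as a percent of the level in Sertoli-like cells on a log scale. Pdgfa lies to the right of the whole marker range in coelomic epithelium-like (18.1%), perivascular-like (15.9%), interstitial-like (11.0%) and peritubular myoid-like cells (8.98%). It also does so in the H2ac8/H1f5 cluster (8.34%). In Leydig-like and germ-like cells it lies inside or at the edge of the range.

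Among Sertoli-like cells the number of Pdgfa UMIs per cell was broad. At 5000 UMIs per cell the quartiles were 0, 1 and 3 and the highest cell had 17, with a variance 2.97 times the mean. As read, the highest cell had 43. Cells called in G1 had 480 CPM (462 to 498), cells in S 421 CPM (399 to 444) and cells in G2/M 391 CPM (371 to 412). The G1 interval lay above the other two, which overlapped each other, but these intervals leave out the extra spread between cells given above. The phases differ in depth, from a median of 13188 UMIs in G1 to 18658.5 in G2/M, whose part was not tested.

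Pdgfb, the B chain, lies on the minus strand at chr15:79995874-80014977. Endothelial-like cells had 166 CPM (138 to 199) from 119 UMIs in 42 cells, and 83.3% of them had a UMI. That was 9.56-fold the immune-like level (5.02 to 20.5) and 17.1-fold the Leydig-like level (12.0 to 24.8). Immune-like cells had 17.4 CPM, from 10 UMIs in 5 cells, and 1 cell held 5 of the 10. Their interval (8.33 to 31.9) overlapped that of Leydig-like cells and leaves out this spread between cells. The share with a UMI among interstitial-like cells was 0.67%, at a median depth of 8839 UMIs, against 12768.5 UMIs in endothelial-like cells. Sertoli-like cells had 4.15 CPM, germ-like cells 2.70 CPM and peritubular myoid-like cells 1.29 CPM. In 3 groups there was no Pdgfb UMI, which allows up to 3.69 CPM in the Kcnk2/Pde10a cluster, 2.77 CPM in the Nts/Vsnl1 cluster and 10.0 CPM in erythroid-like cells.

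Leydig-like cells, which make androgen, had 9.70 CPM of Pdgfb (7.05 to 13.0), from 44 UMIs in 29 of 223 cells. This was 5.84% of the endothelial-like level, while the 8 endothelial markers in the Leydig-like cells stood at 0.98% or less of theirs. In Sertoli-like cells Pdgfb stood at 2.50% and the highest endothelial marker, Pecam1, at 2.35%. Blood cell markers were also present in the groups next in order for Pdgfb. The 5 megakaryocyte markers, of the platelet lineage, summed to 74.3 CPM in Leydig-like cells (1 of 5 at 0) and 356 CPM in immune-like cells (2 of 5 at 0), against 0 to 20.05 CPM in the other groups. In Leydig-like cells Pf4, a platelet chemokine gene, gave 47.6 of the 74.3 CPM and was read in 1 cell. Ppbp and Gp9 were also each read in 1 cell, and Itga2b in 52. Itga2b alone had 18.95 CPM, within the range of the other groups, so the higher Leydig-like sum rests on genes read in 1 cell. All 52 Leydig-like cells with a megakaryocyte marker UMI had one of Itga2b. The 171 Leydig-like cells with no megakaryocyte marker UMI had 9.95 CPM of Pdgfb (6.81 to 14.0). In immune-like cells the 22 cells with none had 5.38 CPM from 2 UMIs in 1 cell (0.65 to 19.4). The other 15 held 8 of the 10 Pdgfb UMIs, in 4 cells, and 1 of these cells held 5 UMIs. The 6 erythroid markers summed to 7377 CPM in Leydig-like cells and 17643 CPM in immune-like cells. The 202 of 223 Leydig-like cells with a UMI of them had 10.1 CPM of Pdgfb (7.29 to 13.6). The other 21 had 3.72 CPM from 1 UMI (0.094 to 20.7). The part of the erythroid markers in the Pdgfb level was not tested. Thinned to 5000 UMIs, 3.64% of 220 Leydig-like cells had a Pdgfb UMI.

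Pdgfc, the C chain, lies on the plus strand at chr3:81036416-81214040. Coelomic epithelium-like cells, which cover the testis, had 123.5 CPM (111 to 137). Rete testis-like cells, the lining of the collecting network, had 111 CPM (80.5 to 149.9), and their interval overlapped that of the coelomic epithelium-like cells. With each cell classed by itself the order turned, to 154 CPM in 15 rete testis-like cells (107 to 215) and 124 CPM in the coelomic epithelium-like cells. The peritubular myoid-like cells came next at 24.2 CPM (20.7 to 28.1), a level 4.60-fold below that of the rete testis-like cells, ahead of the Kcnk2/Pde10a cluster at 18.4 CPM and the Sertoli-like cells at 9.48 CPM (7.86 to 11.3). In the rete testis-like cells Pdgfc stood at 90.1% of the coelomic level and the highest of 6 coelomic markers, Krt19, at 5.55%.

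A Pdgfc UMI was read in 74.0% of coelomic epithelium-like cells (median 16243.5 UMIs) and in 0.90% of the deeper Leydig-like cells. The thinned shares were 45.5% of coelomic epithelium-like, 41.4% of rete testis-like, 9.18% of peritubular myoid-like and 4.45% of Sertoli-like cells. The interstitial-like group was uneven, as the Ntng1/Spon1-led cluster of 356 cells had 6.46 CPM (3.95 to 9.98) and the Colec11/Adamts5-led cluster of 846 cells 1.47 CPM (0.76 to 2.57). Endothelial-like, immune-like and erythroid-like cells had no Pdgfc UMI, which allows up to 4.19, 5.21 and 10.0 CPM. Over 10 alternative settings Pdgfc reached 9.98 CPM in immune-like cells.

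Pdgfd, the D chain, lies on the plus strand at chr9:6168584-6378850, overlapped on the other strand by Ddi1. It had 290 UMIs in 246 kept cells, with no more than 3 UMIs in any cell. Coelomic epithelium-like cells had 20.2 CPM (15.3 to 26.1), the Nts/Vsnl1 cluster 13.9 CPM (7.76 to 22.9), peritubular myoid-like cells 13.4 CPM (10.8 to 16.4) and interstitial-like cells 7.03 CPM (5.56 to 8.76). Leydig-like cells had 4.19 CPM, a level whose interval (2.52 to 6.54) overlapped that of the interstitial-like cells. Each neighbour in the order overlapped the next. By direct ratio, coelomic epithelium-like cells had 1.45 times the Nts/Vsnl1 level (0.81 to 2.77) and 1.51 times the peritubular myoid-like level (1.06 to 2.12). A UMI was read in 26.7% of coelomic epithelium-like cells. Sertoli-like cells had 1 UMI in 843 cells (0.08 CPM, or 0.12% of cells), and germ-like and perivascular-like cells none, which allows up to 0.35 and 4.39 CPM.

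Both latent ligands had their highest level in coelomic epithelium-like cells, though each overlapped its next group, so a common top group is not settled. The 250 bases before their RefSeq starts are shown (GRCm38.p6, plus strand, chr3:81036166-81036415 for Pdgfc and chr9:6168236-6168485 for Pdgfd). In total 8 motifs were searched on both strands. They were the GC box GGGCGG, the TATA box TATAAA, the AP-1 motif TGACTCA, the SOX motif AACAAT, the NR5A1 motif AAGGTCA, the GATA motif AGATAA and the E-box CACGTG, with the GLI motif GACCACCCA added after the gene patterns were known. Capitals mark a match. The Pdgfd window holds AGATAA, found in 9.99% of 32817 windows, and TATAAA, found in 12.4%. No motif of the 8 is in the Pdgfc window.
Pdgfc: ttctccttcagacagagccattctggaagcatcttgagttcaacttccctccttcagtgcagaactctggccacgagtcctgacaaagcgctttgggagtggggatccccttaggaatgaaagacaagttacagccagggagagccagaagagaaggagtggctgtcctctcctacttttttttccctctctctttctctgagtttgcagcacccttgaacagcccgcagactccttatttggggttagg
Pdgfd: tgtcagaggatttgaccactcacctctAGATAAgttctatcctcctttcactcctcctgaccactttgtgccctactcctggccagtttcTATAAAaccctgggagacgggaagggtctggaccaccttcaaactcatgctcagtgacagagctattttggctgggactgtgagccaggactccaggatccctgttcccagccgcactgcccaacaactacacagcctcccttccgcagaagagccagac

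For Pdgfa, both RefSeq windows overlap exons of the gene itself. Their GC content is 66.4% and 72.4%, against a median of 52.4% over all windows, and they hold 1 and 2 GC boxes, a motif in 32.7% of windows.

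Pdgfra, which encodes the alpha receptor, lies on the plus strand at chr5:75152292-75198215. Interstitial-like cells had 285 CPM (275 to 295), the H2ac8/H1f5 cluster 249 CPM (231 to 268), peritubular myoid-like cells 226 CPM (215 to 238), the Kcnk2/Pde10a cluster 210 CPM (179.9 to 244) and the Nts/Vsnl1 cluster 165 CPM (141 to 191). The interstitial-like interval lay above that of the H2ac8/H1f5 cluster, and the next 3 pairs of neighbours overlapped. By direct ratio, peritubular myoid-like cells had 0.91 times the H2ac8/H1f5 level (0.83 to 0.99) and 1.08 times the Kcnk2/Pde10a level (0.92 to 1.27). The Kcnk2/Pde10a level was 1.28 times the Nts/Vsnl1 level (1.03 to 1.58). As the H2ac8/H1f5 cells were all called in S or G2/M, the 2 groups were also compared by phase. In G2/M they overlapped, at 291 CPM in H2ac8/H1f5 (266 to 317) and 300 CPM in interstitial-like cells (276 to 326). In S they did not, at 185 CPM (160 to 212) and 236 CPM (221 to 253). Coelomic epithelium-like cells had 107 CPM (95.5 to 120.0), perivascular-like cells 39.5 CPM, rete testis-like cells 12.9 CPM and Leydig-like cells 10.8 CPM. These last values depend on where the classes were drawn, since over 10 alternative settings Pdgfra ranged from 8.72 to 42.2 CPM in Leydig-like cells and from 33.5 to 104 CPM in perivascular-like cells. Outside the stroma the level was low, with 2.23 CPM in germ-like cells, 1.80 CPM in Sertoli-like cells (11.5 CPM with no doublets removed) and 1.40 CPM in endothelial-like cells.

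A Pdgfra UMI was read in 86.6% of interstitial-like cells and in 2.73% of Sertoli-like cells, at median depths of 8839 and 14365 UMIs. Thinned shares were 70.2% of H2ac8/H1f5, 70.0% of interstitial-like, 63.5% of peritubular myoid-like, 54.3% of Kcnk2/Pde10a, 47.6% of Nts/Vsnl1 and 34.5% of coelomic epithelium-like cells. In Leydig-like cells 4.09% had a thinned Pdgfra UMI.

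Among interstitial-like and peritubular myoid-like cells, Pdgfra was lowest in those called in S phase. In the H2ac8/H1f5 cluster the S interval (160 to 212) lay below that of G2/M (266 to 317). In coelomic epithelium-like cells the S interval (64.7 to 102) overlapped that of G2/M (89.1 to 129). In the Nts/Vsnl1 cluster the S interval (113 to 192) overlapped that of G1 (125 to 201). The interstitial-like cells had 236 CPM in S (221 to 253), 310 CPM in G1 (296 to 325) and 300 CPM in G2/M (276 to 326). The peritubular myoid-like cells had 191 CPM in S, 251 CPM in G1 and 229 CPM in G2/M, and the S interval (173 to 211) overlapped the G2/M interval (209.7 to 250.3). Phase calls rest on other genes of the same cells, and free RNA could shift them, whose part was not tested.

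**Figure D3:**
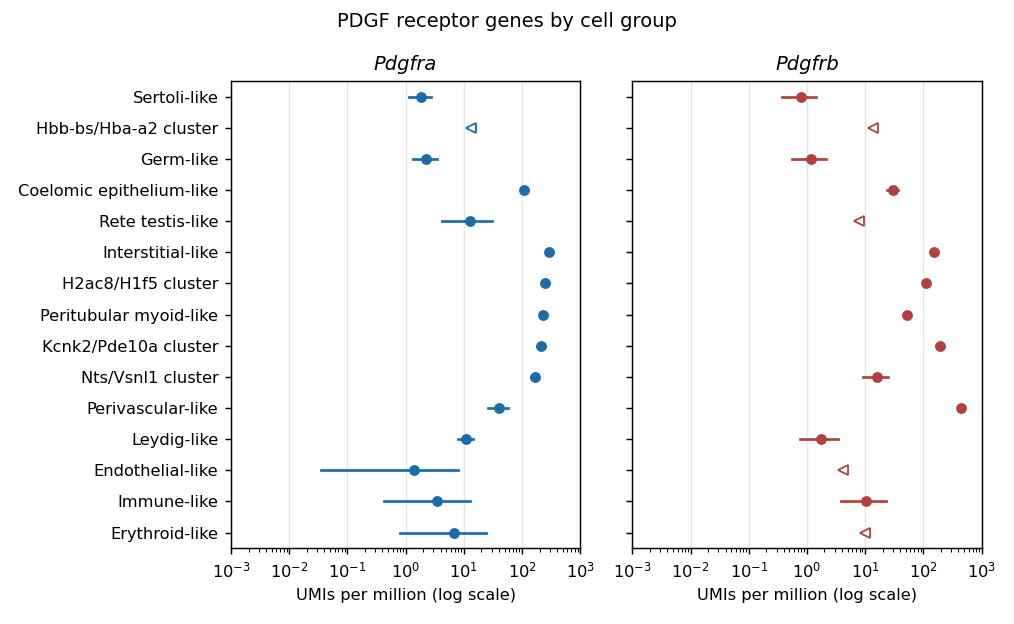
Level of the PDGF receptor genes (CPM, log scale) in the 15 cell groups. Points are group levels, lines exact Poisson 95% intervals and open triangles the 3-count limit of groups with no UMI. Pdgfra is highest in interstitial-like cells (285) and Pdgfrb in perivascular-like cells (443).

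The Pdgfra window before its RefSeq start (GRCm38.p6, plus strand, chr5:75152001-75152250, 54.4% GC) is shown because the gene's pattern was close to that of hedgehog factors, given further on. None of the 8 motifs is in it, GACCACCCA included, which 0.23% of the windows hold, and none is in capitals.
Pdgfra: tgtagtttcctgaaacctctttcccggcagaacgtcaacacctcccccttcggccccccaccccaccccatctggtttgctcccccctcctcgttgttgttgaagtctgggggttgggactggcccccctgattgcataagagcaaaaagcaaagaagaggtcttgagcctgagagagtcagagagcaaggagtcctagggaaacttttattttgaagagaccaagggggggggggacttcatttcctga

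The pattern of Pdgfra over the 14 clusters of at least 30 cells was most like that of Dcn, a proteoglycan gene on the interstitial marker list, with Pearson r of 0.98 on log2(CPM + 5) among 9878 genes. In order, Gli2, Unc5c, a netrin receptor gene, Sulf2, a heparan sulfatase gene, and Gli1 followed, each at 0.98. Gli2 and Gli1 encode transcription factors of hedgehog signalling. These correlations describe the clusters of 1 library, which share depth and dissociation, and carry no p.

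Pdgfrb, the beta receptor, lies on the plus strand at chr18:61045150-61085061. It was highest in perivascular-like cells, the mural cells of vessels, at 443 CPM (395 to 496), and a UMI was read in 56 of 56 cells. The share among Sertoli-like cells was 1.19%. The Kcnk2/Pde10a cluster followed at 193 CPM (164 to 226), then interstitial-like cells at 153 CPM (146 to 161), the H2ac8/H1f5 cluster at 109 CPM (97.2 to 122) and peritubular myoid-like cells at 52.7 CPM (47.4 to 58.3). The intervals of these 5 groups did not overlap their neighbours. Below them were coelomic epithelium-like cells at 29.7 CPM, the Nts/Vsnl1 cluster at 15.7 CPM and immune-like cells at 10.4 CPM.

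Pdgfrb was near 0 in the cords, with 0.78 CPM in Sertoli-like and 1.17 CPM in germ-like cells, and at 1.76 CPM in Leydig-like cells. No UMI was read in endothelial-like cells, which allows up to 4.19 CPM, nor in rete testis-like cells, which allows up to 7.76 CPM. Over 10 alternative settings Pdgfrb reached 6.48 CPM in endothelial-like cells. In the interstitial-like cells Pdgfrb stood at 34.6% of the perivascular-like level, with the 8 perivascular markers between 0.24% and 32.9%. In the Kcnk2/Pde10a cluster it stood at 43.6%, with no marker above 16.7%. A thinned Pdgfrb UMI was found in 90.9% of perivascular-like, 59.3% of Kcnk2/Pde10a, 46.4% of interstitial-like and 20.3% of peritubular myoid-like cells. The pattern most like it was that of Rem1, a small GTPase gene (r of 0.98), followed by Lhfp, Naalad2, Cd248, which encodes endosialin, and Gucy1b1, which encodes a subunit of soluble guanylate cyclase.

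The interstitial-like clusters differed in their receptors. The Ntng1/Spon1-led cluster had 307 CPM of Pdgfra (288 to 327) and 131.5 CPM of Pdgfrb (119 to 145). The Colec11/Adamts5-led cluster had 277 CPM of Pdgfra (266 to 289) and 162 CPM of Pdgfrb (153 to 171). Pdgfra intervals overlapped at the edge and Pdgfrb intervals did not. By direct ratio, the Pdgfra level of the Colec11/Adamts5-led cluster was 0.90 times that of the Ntng1/Spon1-led cluster (0.84 to 0.97).

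The number of Pdgfra UMIs for each Pdgfrb UMI compares the pair within a group, and its differences between groups do not depend on the unequal capture of the 2 genes. It was 0.09 in perivascular-like cells (0.058 to 0.13), 1.09 in the Kcnk2/Pde10a cluster (0.87 to 1.36), 1.86 in interstitial-like cells (1.75 to 1.97), 2.28 in the H2ac8/H1f5 cluster, 3.61 in coelomic epithelium-like cells (2.82 to 4.65), 4.30 in peritubular myoid-like cells (3.83 to 4.83) and 10.5 in the Nts/Vsnl1 cluster (6.36 to 18.4). Over 9 alternative settings it ran from 0.077 to 0.30 in perivascular-like, 1.86 to 2.35 in interstitial-like and 2.50 to 4.71 in peritubular myoid-like cells. The ratio of the peritubular myoid-like cells lay above that of the interstitial-like cells and overlapped that of the coelomic epithelium-like cells.

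**Figure D4:**
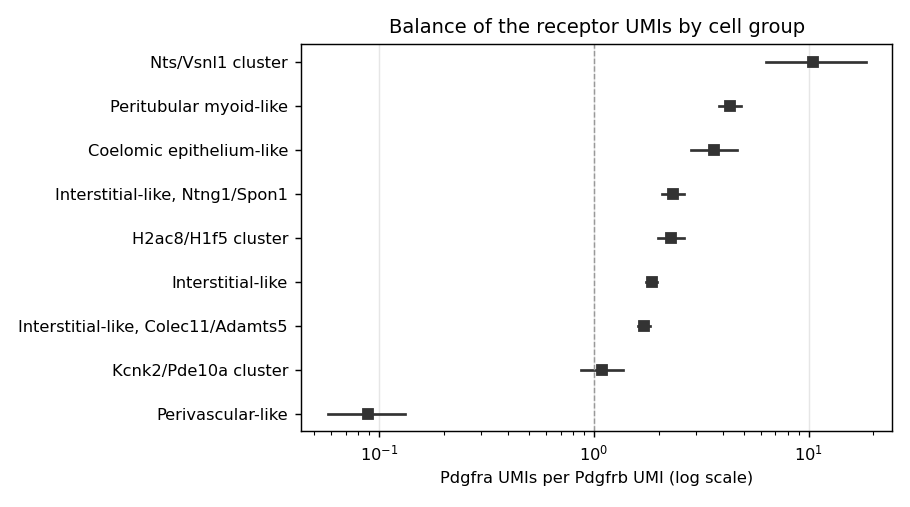
Pdgfra UMIs per Pdgfrb UMI (log scale) in groups with at least 100 receptor UMIs, and in the 2 interstitial-like clusters on their own. Squares are ratios and lines 95% counting intervals. The perivascular-like cells sit alone on the left (0.09), and the Nts/Vsnl1 cluster is farthest right (10.5).

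Many stromal cells carried both receptors. At 5000 UMIs per cell, 364 of 1136 interstitial-like cells (32.0%) had UMIs of both, 431 of Pdgfra alone, 163 of Pdgfrb alone and 178 of neither. A Pdgfra UMI was found in 69.1% of the cells with a Pdgfrb UMI (64.9 to 73.0) and in 70.8% of those without (67.0 to 74.4). Both were found in 13.9% of peritubular myoid-like cells and in 34.6% of the Kcnk2/Pde10a cluster. In perivascular-like cells 45 of 55 had Pdgfrb alone and 5 had both.

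A ligand and a receptor were also read in the same cell. At 5000 UMIs 231 of 3643 cells (6.34%) had UMIs of Pdgfa and Pdgfra, of which 138 were interstitial-like and 41 peritubular myoid-like. Among interstitial-like cells with a Pdgfra UMI 17.4% had a Pdgfa UMI (14.8 to 20.2), and among those without 20.5% (16.4 to 25.2). Pdgfc and Pdgfra were found together in 26 of 145 coelomic epithelium-like cells (17.9%) and 34 of 512 peritubular myoid-like cells (6.64%). Pdgfd and Pdgfrb were found together in 26 of 3643 cells, 24 of them interstitial-like.

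**Figure D5:**
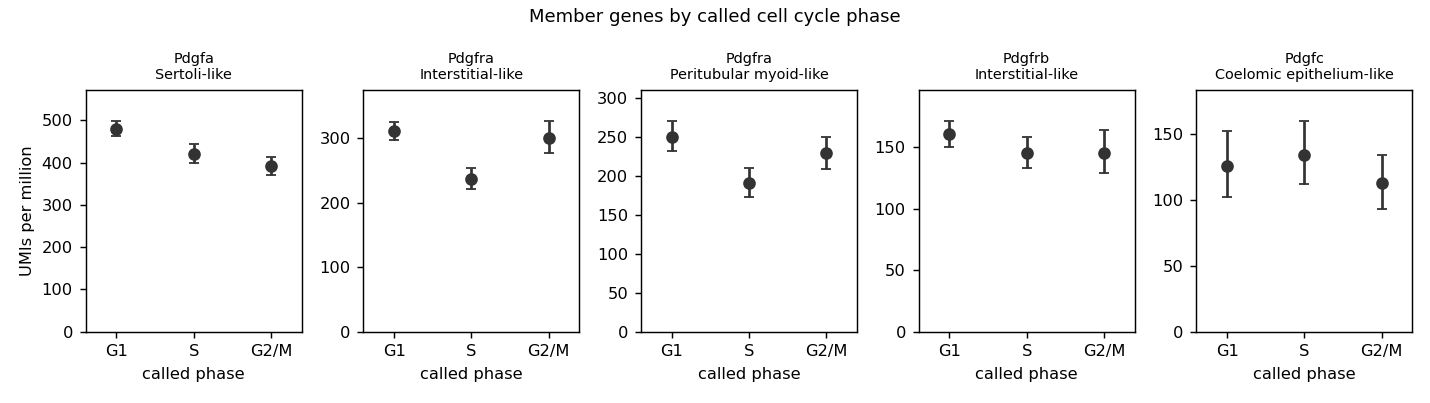
Level (CPM, axis from 0) of 4 member genes in the cell groups where each is abundant, by called cell cycle phase. Points are levels and bars exact Poisson 95% intervals, which leave out any extra spread between cells. Pdgfa in Sertoli-like cells is highest in G1 (480), and the intervals of Pdgfrb and Pdgfc overlap between phases. Pdgfra is lowest in S in the groups drawn, where its peritubular myoid-like S and G2/M intervals overlap.

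Patterns close to those of the ligands were found by the same rule. Pdgfa was most like Smtnl2 (r of 0.90) and Slc24a5 (0.89), then Jund, an AP-1 factor gene, Sema6c and the receptor kinase gene Tyro3 (each 0.88). Pdgfb was most like the endothelial genes Rasgrp3, Spns2 and Icam2 (each 0.95), then Gimap1 and Afap1l1 (each 0.94). Pdgfc was most like Sema3d and Ak5 (each 0.93), followed by Flrt1, Sema3a and Myrf. Pdgfd was most like Kif26b (0.92), followed by Celf4, Usp29, Cpz and Tgm2.

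The pathway lists held 53 genes grouped by role, of which 48 could be compared between groups. The median of the ratio between highest and second group was 1.26 over all 53, those too low to compare included. It was 1.22 over all genes tested. Of the 48 genes 3 passed 4-fold, which is near the share over all genes tested, 688 of 13187 (5.22%). Pdgfrl, a receptor-like gene, had 228 CPM in rete testis-like cells (183 to 281). Csf1r, the receptor of macrophage growth factor, had 450 CPM in immune-like cells (397 to 508). The early response gene Fos had 214 CPM in immune-like cells (178 to 255). Pdgfrl was among the leading genes of its cluster and Csf1r was an immune marker, so both took part in forming or naming the groups.

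Among genes that act on the ligands, Plat, the plasminogen activator that cuts PDGF-C, was highest at 155 CPM in the Kcnk2/Pde10a cluster (129 to 184). Its interval overlapped that of rete testis-like cells, at 106 CPM (76.1 to 144). Of the binding proteins Sparc was highest at 3633 CPM in endothelial-like cells, with 2509 CPM in Sertoli-like cells. The adaptor gene Grb2 was highest at 136 CPM in immune-like cells (107 to 169), overlapping the Hbb-bs/Hba-a2 cluster (68.9 to 159.9). The phosphatase gene Ptpn1 was highest at 144 CPM in the same cells (115 to 179), overlapping endothelial-like cells (83.6 to 133). Ier2, an early response gene, was highest at 257 CPM in endothelial-like cells (221 to 297) and overlapped the perivascular-like level of 237 CPM. None of the 6 processing, 16 adaptor or 11 brake genes tested passed 4-fold, against 5.22% of all genes tested. Lists of this size are too small to be told apart from that share.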

How the data were processed

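The 1 control library held single-cell RNA captured with 3′ droplet chemistry. Per the labels, the authors used Cell Ranger (the submitters' processing notes name 3.0.2 and 3.1.0) on mm10. They deposited UMI counts per gene and barcode without normalization. The paper's supplementary methods name a later Cell Ranger version, and mm10 joined to a yellow fluorescent protein sequence. Which version made this matrix was not settled. The matrix held 72595083 UMIs in 5421 barcodes. Barcodes under 200 genes (372), doublets (204, 4.04%) and cells beyond 3 median absolute deviations (1038) were removed, leaving 2284 to 53657 UMIs per cell. Cells were clustered in R 4.3.3 (Seurat 5.3.0, sctransform 0.4.2) on 3000 variable genes, 30 components and resolution 0.8, with the 6 members left out. A cluster was named when a list's mean log2 ratio was at least 1 with at least 3 markers in 25% of cells, and its leading genes and depth did not go against the name. Unnamed clusters are called by 2 of their leading genes, and 1 leading gene is not reported here. The megakaryocyte, mesonephric epithelium and neural crest lists named none.

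The members and lists were chosen with earlier results of these data known. Named genes were all members, the 5 genes most like each by Pearson r, and, of each pathway list, the gene with the highest level and those past 4-fold. Like genes had at least 50 UMIs and 20 CPM in a cluster. A gene was compared between groups from levels summed per group, with a pseudocount of 5 CPM. Levels were computed in Python 3.11.15 with scipy 1.17.1, numpy 2.4.6 and pandas 2.3.3. Intervals are exact at 95%, and a count of 0 allows 3 counts. No test was made. Gene positions are from GENCODE M21 and upstream windows from RefSeq, which held 4 of the 6 members.

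The level and naming steps were tested on simulated data of 22631 genes. In Sertoli-like cells 100 genes changed 2-fold gave a median of 1.99 and 100 changed 4-fold gave 4.00, and 15 of 16 clusters got their name. The folds were read after dividing out the shift in total RNA, computed from the known folds. Counts were Poisson draws from the real cluster profiles, with no extra spread between cells. The simulation thus checks the arithmetic and not the spread of real cells. The clustering itself was not simulated. Other filters, doublet rates, resolutions and class assignments were tried as alternatives.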

Additional observations from a re-analysis of the deposited data

Results flagged for a closer look

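The filters set aside 1242 barcodes with at least 200 genes, as doublets or outliers, and these held UMIs of every member. They were 1216 UMIs of Pdgfa, 1036 of Pdgfra, 574 of Pdgfrb, 185 of Pdgfc, 125 of Pdgfb and 61 of Pdgfd, while barcodes under 200 genes held at most 3 UMIs of any member. The removed barcodes carried 23.5% of the UMIs. They carried 30.9% of the Pdgfb UMIs and 14.2% to 19.8% of those of the other 5 genes.

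When the outlier filter was left out and cells were clustered again, 388 cells were Leydig-like, of which the filter had removed 87. These 87 had 43 Pdgfb UMIs and 24.0 CPM (17.4 to 32.3). The 223 Leydig-like cells of the main clustering had 9.70 CPM (7.05 to 13.0). The sets come from different clusterings. The 87 removed cells had a median of 17933 UMIs but were mixed in depth. The median was 4659 UMIs in the 72 without a megakaryocyte marker UMI and 42649 in the 15 with such a UMI. The erythroid markers of the 87 summed to 161 CPM, against 7377 CPM in the Leydig-like cells of the main clustering. The part of this and of depth in Pdgfb was not tested. The 83 removed Sertoli-like cells had 431 CPM of Pdgfa (379.8 to 486), overlapping the 440 CPM of the main clustering, and no UMI of either receptor. In the clustering without the outlier filter, 371 removed cells fell in a Cited1/Defb36 cluster, left unnamed, with a median of 916 UMIs. They had 106 Pdgfa UMIs and 275 CPM (225 to 332), below the Sertoli-like interval of the main clustering (429 to 452).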

How the results depend on the processing

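Each member kept its highest named class in all 8 alternatives of filter, doublet rate, resolution, normalization and clustering genes. With each cell classed by itself, Pdgfc was highest in rete testis-like cells (154 CPM in 15 cells, against 124 CPM in coelomic epithelium-like cells), and the other 5 members kept their class. The mean of the cells' own CPM turned none. In 1 of the 8, double the doublet rate, no cluster was named rete testis-like. Over these 8 the level in the highest class ranged from 428 to 444 CPM for Pdgfa, 157 to 166 for Pdgfb, 122 to 128 for Pdgfc, 19.2 to 21.1 for Pdgfd, 279.9 to 296 for Pdgfra and 328 to 443 for Pdgfrb. Pdgfrb in perivascular-like cells moved most, to 328 CPM with no doublets removed, 377 at double the doublet rate, 341 at resolution 0.4, 338 at resolution 1.2, 335 with members kept for clustering and 353 with each cell classed by itself, settings in which this class held 92 to 114 cells rather than 56. Pdgfa was 428 CPM with no doublets removed and 459 as the mean of the cells' own CPM. Pdgfra was 296 CPM with members kept and 302 as the mean of the cells' own CPM. The other 50 values of the highest classes stayed within the interval given, as did 524 of 594 values in other classes. Without the cells that had a megakaryocyte marker UMI, an alternative chosen after seeing the data, Pdgfb was 9.95 CPM in Leydig-like and 5.38 CPM in immune-like cells.

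Shares of cells with a UMI fall as depth is reduced, by construction. At 5000 and 3000 UMIs they were 72.2% and 59.3% for Pdgfa, 45.2% and 38.1% for Pdgfb, 45.5% and 23.5% for Pdgfc, 7.59% and 7.38% for Pdgfd, 70.0% and 54.6% for Pdgfra, and 90.9% and 74.5% for Pdgfrb, each in its highest class. With no doublets removed 17.1% of cells had both Pdgfa and Pdgfra, against 15.8%, as read. Of the 5 genes most like each member, a pseudocount of 1 kept 3 for Pdgfa, 1 for Pdgfb, 2 for Pdgfc, 3 for Pdgfd, 4 for Pdgfra and 2 for Pdgfrb. One library of pooled testes gives no replicate, and groups under 50 cells rest on few UMIs.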
